A study of Mus musculus with 12 samples.

Results

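The genes described here are 9 transcription factors of smooth muscle and mural cells, Srf, Myocd, Mef2a, Mef2c, Mef2d, Gata6, Tbx18, Hand2 and Tcf21. They were studied in the abdominal aorta of mice with Ccn2 deletion targeted to smooth muscle and of their controls. The factors were taken from the deposited expression table as the rows whose mouse gene symbol is one of these names, which gave 9 of 55092 features, each found once. The series holds RNA-Seq of 12 aortas from male mice in 4 groups of 3. All mice carried floxed Ccn2 alleles and received 5 doses of tamoxifen from 8 weeks of age, followed by a washout of 2 weeks. CCN2SMCΔ mice also carried Cre-ERT2 under the Myh11 promoter, which is active in smooth muscle cells. Tamoxifen was thereby meant to remove Ccn2 in those cells alone, whereas CCN2fl/fl controls had no Cre. Mice then received Ang II at 500 ng/kg/min or saline for 7 days, giving CCN2fl/fl with saline (CFS), CCN2SMCΔ with saline (CSS), CCN2fl/fl with Ang II (CFA) and CCN2SMCΔ with Ang II (CSA). Each library is named by its group and mouse number, as in CSA03, and no control carried Cre without floxed alleles.

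SRF is a MADS-box protein that binds CArG boxes in the control regions of contractile genes and of immediate early genes. Myocardin, encoded by Myocd, is its coactivator in smooth and cardiac muscle, and SRF on contractile genes is strongly activated when myocardin is present. MEF2 proteins form another branch of the MADS-box family and act with class IIa histone deacetylases, which hold their targets down. GATA6 is the main GATA factor of the arterial media, and TBX18 marks mural cells and their progenitors. HAND2 and TCF21 are bHLH factors of mesenchymal lineages, and TCF21 is better known in adventitial fibroblasts and epicardial cells than in the media.

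Values are FPKM, fragments of a gene scaled to its exon length and to the size of the library, as deposited. The libraries held 14558580 to 23107807 fragments when fragments were recovered from the FPKM steps. The targeted gene Ccn2 was lower in CSA (328 ± 71.9 FPKM, SD, n = 3) than in CFA (894 ± 290), and the groups did not overlap (adjusted p = 0.00622, limma with Benjamini-Hochberg adjustment). In saline its levels were 554 ± 106 FPKM in CSS and 766 ± 318 FPKM in CFS and overlapped (adjusted p = 1). Loss of Ccn2 was thus not shown in the saline libraries of whole aorta. Of the Ccn2 exonic bases, 23.2% are shared with Gm15270. Markers of several cell types differed between CFA and CSA. The counts of markers called are to be read beside all tested genes, of which 21.2% fell and 19.5% rose. The summed FPKM of 8 smooth muscle markers was 5540 to 8450 in CFA and 828 to 973 in CSA, and all 8 fell. Sums of macrophage markers (8 genes, all 8 rose) went from 287 to 582 in CFA to 1880 to 2030 in CSA, and those of T cell markers (6 genes, all 6 rose) from 0.559 to 2.15 to 22.6 to 33.2. Neutrophil markers summed to 10.6 to 26.6 FPKM in CFA and 490 to 534 in CSA, where all 5 tested of 6 rose. The T cell markers Cd3d, Cd3e, Cd3g, Cd4 and Cd8a and the neutrophil marker Mmp8 reached 1 FPKM only in CSA libraries. They were tested only through the group where they are high, so their calls are a description. Without CSA03 only 1 of the 6 T cell markers was tested. Pericyte markers summed to 1040 to 1800 in CFA and 304 to 348 in CSA (5 of 8 fell), and 9 fibroblast markers to 1290 to 1390 and 1220 to 1750 (2 rose, 3 fell). Endothelial markers summed to 224 to 505 in CFA and 138 to 174 in CSA (3 of 8 fell, 1 rose), and adipocyte markers to 89.7 to 258 and 55.1 to 95.9 (2 of 6 fell). No marker of these 8 lists was at 0 in all 12 libraries. The part of these shifts in the changes of the 9 factors was not tested. In whole aorta, fewer cells of a type and less RNA of a gene per cell cannot be told apart.

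One library stood apart. CSA03 lay 1.213 and 1.199 (root mean square difference of log2(FPKM + 0.1)) from CSA01 and CSA02, which were 0.505 apart. Its difference from these 2 libraries followed the GC content of transcripts over genes (Spearman's rho = -0.658, a description over genes of 3 libraries), with a median of 0.61 on the log2 scale in the lowest of 5 equal groups of genes by GC content and -1.08 in the highest. For CSA02 against CSA01 the same rho was -0.109. CSA03 was also the shallowest library, at 14558580 fragments.

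Srf lies at chr17:46548329-46556175 on the minus strand (GRCm38, GENCODE M21 annotation, as all positions here). Because Srf is known to be controlled in part by its own product, the 250 bases before its RefSeq start are shown (chr17:46556163-46556412, minus strand, RefSeq on GRCm38.p6), with matches to the CArG box in capitals:
Srf promoter: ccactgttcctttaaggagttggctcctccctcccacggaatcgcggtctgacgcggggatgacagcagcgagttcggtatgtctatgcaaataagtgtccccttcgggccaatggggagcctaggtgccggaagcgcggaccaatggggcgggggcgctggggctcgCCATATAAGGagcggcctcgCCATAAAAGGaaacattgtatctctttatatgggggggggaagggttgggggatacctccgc
The matches were CCATATAAGG, 82 to 73 bases before the start, and CCATAAAAGG, 62 to 53 bases before it. A CArG box on either strand was found in 482 of 32851 promoter windows of this length, or 1.47%. Only the strict form was searched, CC, then A or T bases alone, then GG, so boxes that depart from it are not counted. For contractile genes a single window per gene was searched, whereas every window of a factor was. Among the 16 of 20 contractile genes listed below that had a promoter in the RefSeq table, 2 held a match in this window. These were Myl9, which encodes the regulatory myosin light chain (CCTAATAAGG, 161 to 152 bases before its start), and Vcl, which encodes vinculin (CCTTATAAGG, 227 to 218 bases before). Windows were available for 7 of the 9 factors, Srf, Mef2a, Mef2c, Mef2d, Tbx18, Hand2 and Tcf21, and Srf was the only one of these with a CArG box. The E-box CANNTG, the site class of bHLH proteins, is in 66.2% of all windows and was in those of Mef2c, Tbx18 and Hand2. The GATA motif AGATAA, in 9.99% of windows, was in those of Hand2 and Tcf21. The Sp1 motif GGGCGG, in 32.7% of windows, was in those of Srf, Mef2c, Mef2d and Hand2. Neither the T-box motif TCACACCT (1.12% of windows) nor the MEF2 site (2.92%) was in a window of the 7. Both strands were searched, and a match describes the letters of the window only.

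The first question was how the factors differ between CCN2SMCΔ and CCN2fl/fl aortas under Ang II. In CSA against CFA, 7 of the 9 factors fell and none rose, whereas Mef2a and Hand2 did not pass the test (adjusted p under 0.05 with limma and Benjamini-Hochberg adjustment over 14676 tested genes). Over all tested genes 21.2% were called lower in this comparison, and 40.7% were called in either direction. All 9 passed the filter of at least 1 FPKM in 3 libraries, Hand2 through 3 libraries of the Ang II groups. The median log2 fold change of the 9 was -1.03, beside -0.04 over all tested genes. With the study's fold limit, an absolute log2 fold change over 1.5, the count was 3 (Srf, Myocd and Tcf21), against 8.27% of all genes lower. The values of the CSA and CFA mice did not overlap for 6 factors, all lower in CSA, against 25.1% of all genes. Without CSA03, 8 factors fell, Mef2a being added, where 47% of all tested genes were called in either direction, and only Myocd remained past the fold limit.

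**Figure D1:**
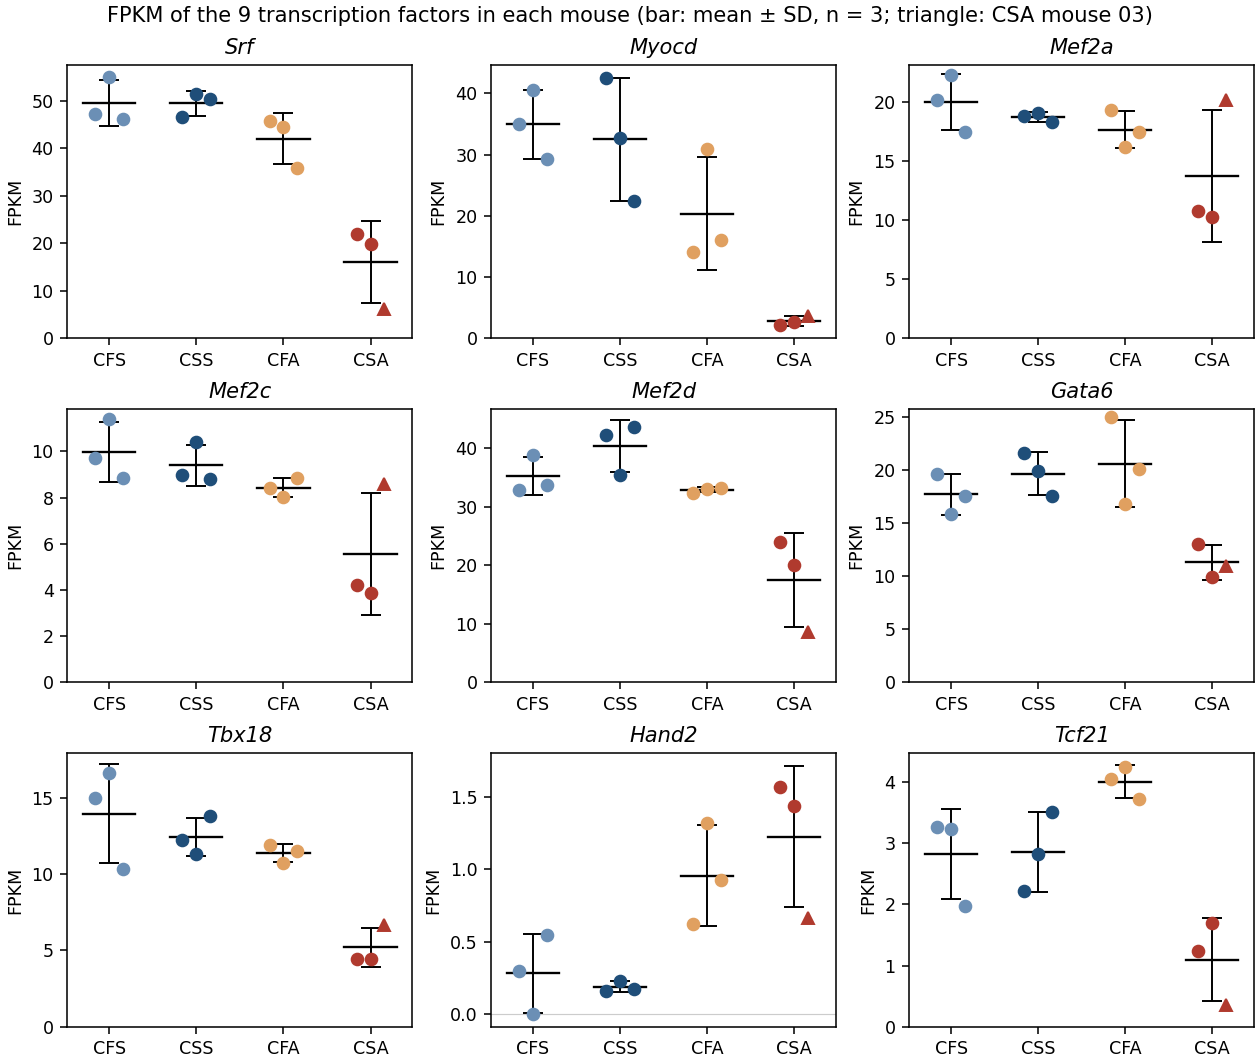
FPKM of each factor (y axis) in the 4 groups (x axis), with a point for each mouse and bars for mean ± SD (n = 3). Srf, Myocd, Mef2d, Gata6, Tbx18 and Tcf21 have all 3 CSA mice below all 3 CFA mice, and the triangle, CSA03, is lowest of its group for Srf, Mef2d, Hand2 and Tcf21 and highest for Myocd, Mef2a, Mef2c and Tbx18.

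Srf had the highest FPKM of the 9 in aortas of CFS, CSS and CFA. Its FPKM was 47.2, 55 and 46.1 in CFS, 46.5, 51.3 and 50.4 in CSS, 45.6, 44.5 and 35.9 in CFA, and 22, 19.9 and 6.20 in CSA. Every CSA mouse was below every mouse of the other groups. The mean went from 42.0 ± 5.32 FPKM in CFA to 16 ± 8.58 in CSA, a 2.98-fold fall (log2 fold change -1.57, SE 0.38, adjusted p = 0.00626, limma). CSA03 had by far the lowest value. Without it the log2 fold change was -1.0 (adjusted p = 0.000114), and so it was with all mice after correction for GC content and length (-1.0). Srf has the highest GC content of the 9, at 62.5%.

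Myocd (chr11:65176561-65269989) had the largest fall of the 9. Its FPKM was 35.0, 40.6 and 29.3 in CFS, 42.5, 32.7 and 22.4 in CSS, 14.0, 30.9 and 16 in CFA, and 2.05, 2.66 and 3.67 in CSA. The CSA values lay far below all others, whereas the CFA mice were spread, with CFA72 inside the saline range and CFA71 and CFA74 under it. From CFA (20.3 ± 9.21 FPKM) to CSA (2.80 ± 0.814) the fall was 6.79-fold (log2 fold change -2.76, SE 0.33, adjusted p = 6.77e-05). It was -2.97 without CSA03, and -2.66 after correction for GC content and length. At 49.6% GC, the Myocd transcript is near the middle of all genes (percentile 47.5), and CSA03 had the highest of the CSA values.

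The MEF2 genes did not move alike. Mef2d (chr3:88142372-88172086) had the highest mean FPKM of the 3 in each group. It was at 32.9, 38.9 and 33.8 FPKM in CFS, 42.2, 35.4 and 43.7 in CSS, 32.4, 33.1 and 33.3 in CFA, and 24.0, 20.1 and 8.59 in CSA. It was lower in every CSA mouse than in any other, and fell 2.04-fold against CFA (log2 fold change -1.03, SE 0.30, adjusted p = 0.0178). Its fall was -0.58 without CSA03 (adjusted p = 0.00261). Mef2d was not called in a fit of the CFA and CSA groups alone (adjusted p = 0.0869).

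Mef2a (chr7:67231163-67372858) was at 19.3, 16.2 and 17.5 FPKM in CFA and 10.8, 10.3 and 20.2 in CSA. CSA01 and CSA02 were below all CFA mice and CSA03 above them, so that the groups overlapped. The log2 fold change was -0.43 (SE 0.22, adjusted p = 0.153), with a 95% confidence interval from -0.92 to 0.07. Mef2c (chr13:83504034-83667080), at 8.43, 8.02 and 8.86 FPKM in CFA and 4.21, 3.88 and 8.60 in CSA, was likewise low in CSA01 and CSA02, with CSA03 inside the CFA range. It fell 1.61-fold (log2 fold change -0.68, SE 0.25, adjusted p = 0.0484), the weakest call among the 7. That call was lost in 9 of 15 alternative fits, including those without CSA01 (adjusted p = 0.144), CSA02 (0.161), CFA71 (0.104), CFA72 (0.0809) or CFA74 (0.121). Without CSA03 both genes fell, Mef2a with a log2 fold change of -0.74 (adjusted p = 0.000374) and Mef2c with -1.04 (adjusted p = 6.9e-05). Both have the lowest GC content of the 9, 42.7%, and the longest exons, 14681 and 15715 bases.

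FPKM are per length, so levels were set side by side between genes, with a limit. The exon length joins all annotated exons of a gene, 14681 bases for Mef2a and 15715 for Mef2c against 5985 for Mef2d. Where the transcripts present are shorter, FPKM come out too low, so shares and orders between genes are approximate. The summed FPKM of the 3 MEF2 genes was 60.1, 57.3 and 59.7 in CFA and 38.9, 34.3 and 37.4 in CSA, where CSA03 did not stand out. Within this sum, Mef2d took 53.8% to 57.7% in CFA, and 61.5%, 58.6% and 23.0% in CSA01, CSA02 and CSA03. Mef2a took 28.3% to 32.2% in CFA, and 27.7%, 30.1% and 54.1% in the CSA mice. Mef2c took 14.0% to 14.9% in CFA, and 10.8%, 11.3% and 23.0% in the CSA mice. For the mean shares, the exact two-sided permutation p was 0.7 for Mef2a and 1.0 for both others (n = 3 per group, where the smallest possible p is 0.1). The spread in CSA came mainly from CSA03, so the test cannot show that the shares were alike. All 3 differences turned sign without CSA03, from 7.35 to -1.05 percentage points for Mef2a, from 0.748 to -3.22 for Mef2c and from -8.1 to 4.27 for Mef2d. The make-up of the MEF2 sum in CSA03 was thus unlike that of its group, and its cause was not tested. MEF2 genes are also active in skeletal muscle, whose 8 markers summed to 162 FPKM in CFS68 and 263 in CSS55 and to 2.71 to 5.95 in the other 10 libraries. The part of such tissue in those libraries was not tested.

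Gata6 (chr18:11052064-11085635) was at 19.7, 15.9 and 17.6 FPKM in CFS, 21.6, 19.9 and 17.6 in CSS, 25.0, 16.8 and 20.1 in CFA, and 13.1, 9.90 and 11 in CSA. The CSA mice were the 3 lowest of the 12. The fall against CFA was 1.80-fold (log2 fold change -0.85, SE 0.17, adjusted p = 0.00204). Gata6 has a GC content of 57.1%, yet CSA03 lay between CSA01 and CSA02, whereas the median gene of its GC group differed by -1.08 there. After correction for GC content and length the log2 fold change was -0.40 and the call was lost (adjusted p = 0.18), whereas without CSA03 it was -0.83 (adjusted p = 0.00349).

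Tbx18 (chr9:87702800-87731260) was at 15, 16.6 and 10.3 FPKM in CFS, 12.2, 11.3 and 13.8 in CSS, 11.9, 10.7 and 11.5 in CFA, and 4.46, 4.46 and 6.69 in CSA. All CSA values were below all others. Tbx18 fell 2.20-fold against CFA (log2 fold change -1.14, SE 0.20, adjusted p = 0.000967), kept its call in all 15 alternative fits, and ranged in them from -1.35 to -1.01. An antisense gene, D030062O11Rik, shares 20.6% of the exonic bases of Tbx18, and its own level was at most 0.558 FPKM. The library protocol names no step that marks strand, so reads in the shared bases cannot be assigned.

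Tcf21 (chr10:22817281-22820174) was at 3.27, 3.23 and 1.97 FPKM in CFS, 2.22, 2.83 and 3.52 in CSS, 4.06, 4.25 and 3.72 in CFA, and 1.24, 1.69 and 0.361 in CSA. CFA mice were the 3 highest and CSA mice the 3 lowest of the 12. The difference was 3.98-fold (log2 fold change -1.99, SE 0.42, adjusted p = 0.0032), next in size to that of Myocd. Without CSA03 it was -1.41 (adjusted p = 0.00114), under the fold limit. Fibroblast markers, which TCF21 is often grouped with, did not fall together in the same comparison (2 of 9 rose and 3 fell). Over all tested genes 19.5% rose and 21.2% fell.

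Hand2 (chr8:57320983-57324633) was close to the limit of detection in saline, with 0.299, 0 and 0.543 FPKM in CFS and 0.160, 0.230 and 0.176 in CSS. In CFS69, where it was listed at 0, 3 fragments would be 0.0682 FPKM. Under Ang II it was at 0.625, 1.32 and 0.923 FPKM in CFA and 1.57, 1.44 and 0.666 in CSA. The Ang II groups overlapped with each other and each lay above both saline groups. The log2 fold change of CSA against CFA was 0.30 (SE 0.64, adjusted p = 0.736), with an interval from -1.10 to 1.7 that leaves changes of either sign possible. Without CSA03 it was 0.66 (adjusted p = 0.497). Hand2os1, on the opposite strand, shares 19.6% of the Hand2 exonic bases and was at most 0.137 FPKM. Sympathetic neurons also express HAND2, and the summed FPKM of 6 of their markers was 4.54, 0.857 and 9.45 in CFS, 4.06, 3.03 and 4.19 in CSS, 3.18, 1.61 and 6.21 in CFA, and 4.83, 2.94 and 20 in CSA. In CSS all of the sum was Stmn2 (4.06, 3.03 and 4.19 FPKM). Dbh, the noradrenaline-forming enzyme gene, was at 0 in each CSS mouse and at 1.43, 0.665 and 7.66 FPKM in CSA, and Npy, the neuropeptide Y gene, was at 0 and at 1.91, 1.08 and 7.96. Of the 3 markers tested, Dbh and Npy were called higher in CSA than in CSS by limma, as Hand2 was (adjusted p = 0.0229 and 0.00157). Stmn2 went the other way, with a log2 fold change of -1.71 (adjusted p = 0.0751). Without CSA03 Stmn2 was called lower (-2.30, adjusted p = 0.0259) and Npy higher (3.95, adjusted p = 0.0137), while Dbh missed the filter. Dbh and Npy were highest in CSA03, where Hand2 was lowest among the CSA mice. The part of these markers in the Hand2 values was not tested.

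The order of mean FPKM shifted between groups, with the limit on comparing genes given above. In CFS it was Srf, Mef2d, Myocd, Mef2a, Gata6, Tbx18, Mef2c, Tcf21 and Hand2. There Mef2d and Myocd overlapped, as did each pair of neighbours from Mef2a to Mef2c, while Srf stood above Mef2d and Tcf21 above Hand2. In CSS the order was the same but for Gata6 and Mef2a, which overlapped, and in CFA Myocd came after Gata6, with which it overlapped. In CSA Mef2d, Srf, Mef2a and Gata6 came first, each overlapping with the next, and Myocd stood below Mef2c and Tbx18. Tcf21 was last there and overlapped with Hand2.

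**Figure D2:**
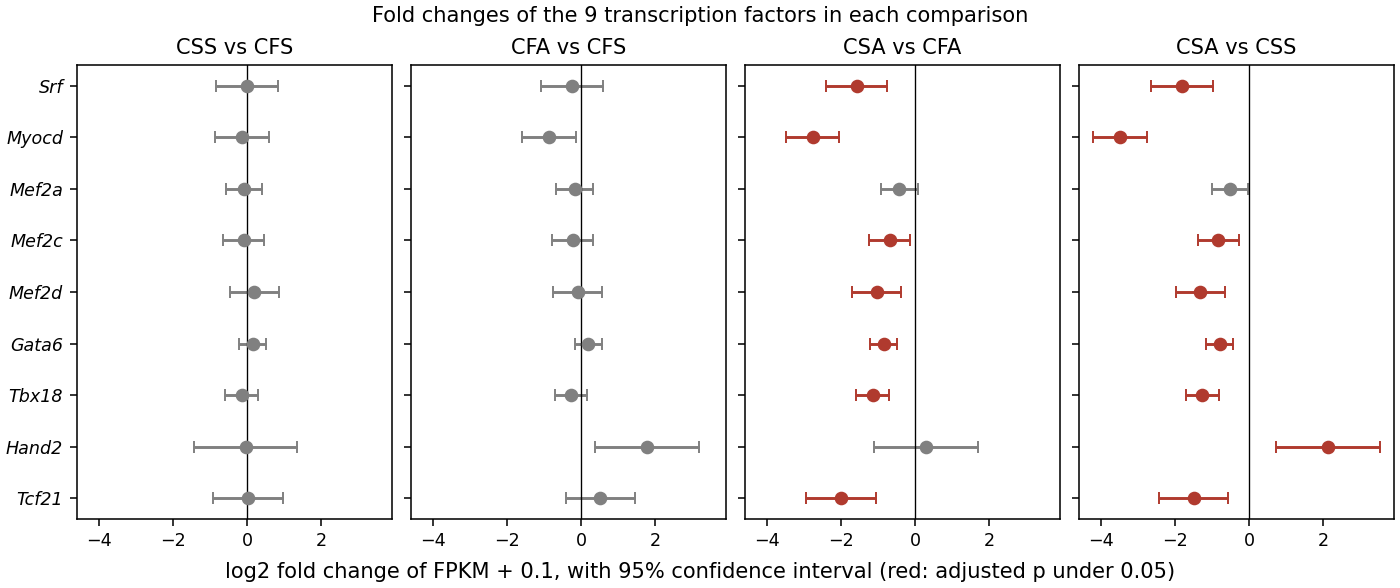
Log2 fold changes of FPKM + 0.1 (x axis) of the 9 factors (y axis) in 4 comparisons, with 95% confidence intervals from limma over all 12 libraries, red where the adjusted p is under 0.05. No factor is red in CSS against CFS or in CFA against CFS, 7 are red and lower in CSA against CFA, and in CSA against CSS 7 are lower and Hand2 is higher. Hand2 was tested only through libraries of the Ang II groups, where it was high, so its values against saline are a description.

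The genotypes were also compared under saline, where the Ccn2 levels of the groups overlapped. In CSS against CFS, none of the 9 was called by limma (0.0204% of all tested genes were), and 0 had an unadjusted p under 0.05 (6.30% of all genes did). Every factor overlapped between these groups, whereas 9.31% of all genes were lower and 11.1% higher without overlap. Log2 fold changes ranged from -0.14 (Myocd and Tbx18) to 0.20 (Mef2d). With 3 mice per group the intervals still allowed changes from -0.83 to 0.83 for Srf, from -0.86 to 0.58 for Myocd and from -0.22 to 0.52 for Gata6. Differences within these intervals remain possible.

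Ang II in mice with intact Ccn2 was compared next. In CFA against CFS none of the 9 was called by limma, against 0.0341% of all tested genes, and 2 had an unadjusted p under 0.05, as had 9.42% of all genes. These were Myocd, with a log2 fold change of -0.86 (unadjusted p = 0.0238, adjusted p = 0.436), and Hand2, with 1.79 (unadjusted p = 0.0172, adjusted p = 0.398). Hand2 was tested only because libraries of the Ang II groups, where it was high, passed the filter, so its value here is a description. The groups did not overlap for Srf, lower in CFA (10.8% of all genes were), and for Hand2 and Tcf21, higher in CFA (9.44% of all genes). None of these 3 passed the adjusted test, and the log2 fold changes of Srf and Tcf21 were -0.24 and 0.52.

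In CCN2SMCΔ mice, Ang II against saline (CSA against CSS) gave calls for 8 of the 9 factors, 7 of them lower. The 1 higher was Hand2, whose call is only a description because of how it entered the test, given below. Over all tested genes 23.9% were called lower and 22.3% higher. Myocd fell 11.2-fold, from 32.5 ± 10 to 2.80 ± 0.814 FPKM (log2 fold change -3.48, SE 0.33, adjusted p = 9.68e-06). Srf fell 3.51-fold (-1.81, SE 0.38, adjusted p = 0.00226). Hand2 rose 4.37-fold on the log2(FPKM + 0.1) scale (2.13, SE 0.64, adjusted p = 0.0177), from 0.189 ± 0.0363 to 1.23 ± 0.490 FPKM. With 1 added in place of 0.1 its log2 fold change was 0.88, still called, and its call was lost without CSS54 (adjusted p = 0.0516). It could be fitted in 11 of the 15 alternatives, since it missed the filter in the others. It had entered the test only through libraries of the Ang II groups, so the call carries that selection. Of the 3 sympathetic neuron markers tested, Dbh and Npy also rose between these groups. Stmn2 did not, at -1.71 (adjusted p = 0.0751, limma), and it fell without CSA03 (-2.30, adjusted p = 0.0259), where Dbh missed the filter. Falls of Mef2d (-1.32), Tbx18 (-1.26), Tcf21 (-1.49), Mef2c (-0.83) and Gata6 (-0.79) were smaller. Tcf21 lost its call without CSS56 (adjusted p = 0.0533), Mef2c without CSA01 (0.064), CSA02 (0.0695) or CSS55 (0.062), and Gata6 after correction for GC content and length (0.405). Mef2a had a log2 fold change of -0.51 (adjusted p = 0.0813), or -0.83 without CSA03 (adjusted p = 0.000142). Without that library the values were -1.23 for Srf, under the fold limit, -0.87 for Mef2d, -0.91 for Tcf21, -1.19 for Mef2c and -3.69 for Myocd, and all 9 factors were called, as were 51.8% of all tested genes in that fit. CSA and CSS mice did not overlap for 7 factors lower and 1 higher, beside 29.1% and 26.3% of all genes. This comparison shares the CSA mice with that of CSA against CFA.

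The interaction, the genotype difference under Ang II minus that under saline, tested directly whether the 2 genotype comparisons differ. It was called for 5 of the 9 factors, all negative (13.7% of all tested genes were called negative, 26.4% in either direction), and 3 of them passed the fold limit (7.31% of all genes). Values were -2.63 for Myocd (SE 0.46, adjusted p = 0.00198), -2.02 for Tcf21 (SE 0.60, adjusted p = 0.0292), -1.58 for Srf (SE 0.53, adjusted p = 0.0496), -1.0 for Gata6 (SE 0.24, adjusted p = 0.0101) and -0.99 for Tbx18 (SE 0.28, adjusted p = 0.0245). Mef2d had -1.23 (adjusted p = 0.054), Mef2c -0.60 (0.248), Mef2a -0.34 (0.471) and Hand2 0.34 (0.817). Among these, Myocd alone kept its call in all 20 alternative fits. The interaction of Srf was lost without any 1 of the 9 mice outside CSA, with adjusted p from 0.0673 to 0.101, and that of Gata6 after GC and length correction (adjusted p = 0.323). That of Tcf21 was lost without CFA71, CFA72, CFA74, CFS70, CSS55 or CSS56 (adjusted p from 0.0521 to 0.0726), and that of Tbx18 without CFA71, CFA74, CSA01, CSA02 or CSS56 (0.0511 to 0.0642). Without CSA03 8 factors were called, all except Hand2 (34.3% of all tested genes in that fit). Mef2d was then at -0.78 (adjusted p = 0.00406), Mef2c at -0.96 (0.00142) and Mef2a at -0.65 (0.00706), and Mef2d was called in 7 of the 20 alternatives. Srf (-1.0) and Tcf21 (-1.44) were then under the fold limit, and Myocd was at -2.83.

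The falls of the factors were next set against those of the genes that SRF and myocardin act on. A list of 20 contractile genes with known CArG control, among them Acta2, Cnn1 and Myh11, fell in CSA against CFA without exception. Myh11, smooth muscle myosin heavy chain, fell 18.1-fold (718 ± 19.8 to 39.9 ± 5.86 FPKM), and Acta2, smooth muscle actin, fell 7.26-fold (5420 ± 1400 to 730 ± 45.5 FPKM). Calponin, Cnn1, fell 13.9-fold. Tagln, which encodes SM22, fell 4.86-fold, but 67.9% of its exonic bases are shared with Gm48529 and Pcsk7, its level in CFA was 18.5 ± 3.45 FPKM, and its value is uncertain. Synpo2, a protein of dense bodies, and Itga8, an integrin chain of contractile cells, had log2 fold changes of -4.28 and -3.90. The median of the 20 was -2.71, beside -0.04 for all genes.

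In each library the mean log2(FPKM + 0.1) of these 20 genes was then subtracted from that of each factor. The mean of the 20 was 7.57, 7.56 and 7.32 in CFA and 4.79, 4.89 and 4.6 in CSA. Relative to it, Myocd was at -3.76, -2.60 and -3.32 in CFA and -3.68, -3.42 and -2.69 in CSA. These ranges overlapped, and the difference was -0.04 (exact two-sided permutation p = 0.8, n = 3 per group). Srf was at -2.06, -2.08 and -2.15 in CFA and -0.32, -0.57 and -1.94 in CSA, a difference of 1.15 without overlap (exact permutation p = 0.1, the smallest that 3 against 3 allows). CSA03 alone was close to the CFA values. The other factors had differences of 1.59 (Tbx18), 1.69 (Mef2d), 1.88 (Gata6), 2.04 (Mef2c), 2.30 (Mef2a) and 3.03 (Hand2), each without overlap (exact permutation p = 0.1). A gene without change would have a difference of 2.72, and 89.5% of all tested genes were higher on this scale without overlap. All but Hand2 were under 2.72. Tcf21 overlapped, with 0.73 (exact permutation p = 0.4), and had 1.23 without CSA03. This design cannot reach a p of 0.05, so the relative levels are a description.

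**Figure D3:**
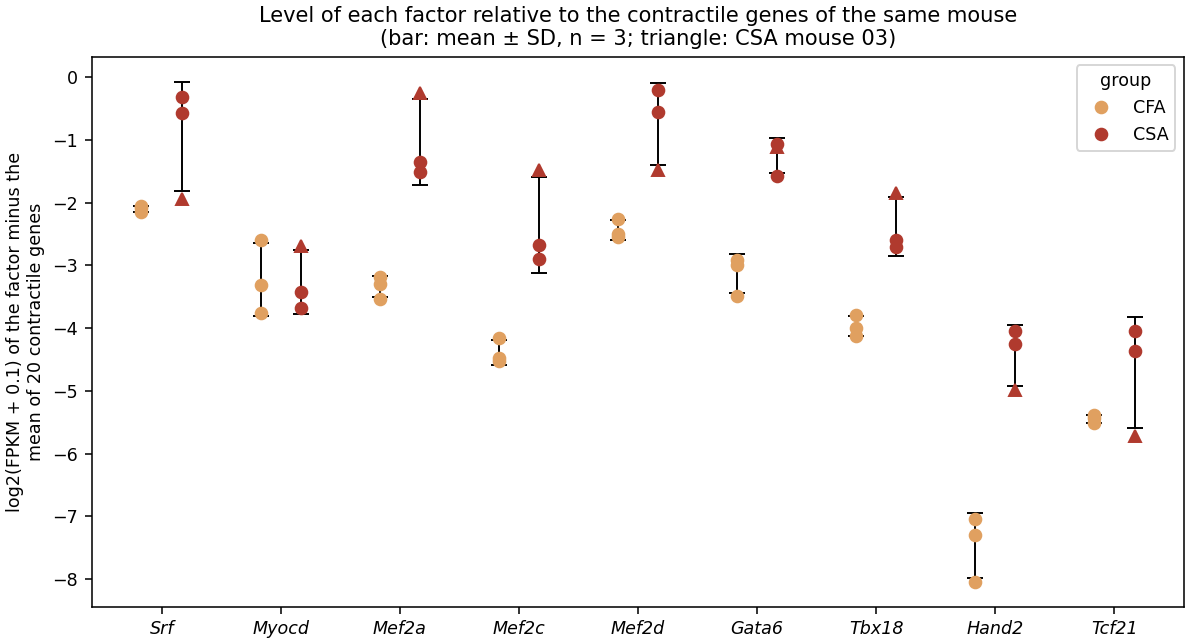
Log2(FPKM + 0.1) of each factor minus the mean of 20 contractile genes of the same mouse (y axis) for CFA and CSA, with points for mice and bars for mean ± SD (n = 3). Myocd lies in the same range in both groups, between -3.76 and -2.60 in CFA and -3.68 and -2.69 in CSA, whereas Srf, the MEF2 genes, Gata6, Tbx18 and Hand2 lie higher in CSA, by 1.15 to 3.03, where a gene without change would lie 2.72 higher.

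Other genes of the SRF branch were read from the same fit. A list of 10 genes held SRF cofactors, ternary complex factors and the SRF target Lmod1. Of these, 5 fell and 2 rose in CSA against CFA. Their median log2 fold change was -0.87 (-0.65 without CSA03, with the same counts). Over all tested genes 21.2% fell and 19.5% rose, and without CSA03 3620 of 14066 fell and 2997 rose. The falls were largest for Lmod1 (-3.52), for the LIM protein gene Csrp1 (-2.64) and for Fhl1 (-2.04). Lmod1 encodes a leiomodin and is not a cofactor, and it is also among the smooth muscle markers used here. The myocardin-related coactivators did not pass the test, with log2 fold changes of 0.23 for Mrtfa (adjusted p = 0.56) and -0.63 for Mrtfb (adjusted p = 0.133). Mrtfa was at 11.9 and 11 FPKM in CSA01 and CSA02 and 4.78 in CSA03, and without CSA03 it was called higher (0.65, adjusted p = 0.00755). Of the ternary complex factors, Elk3 rose (0.82, adjusted p = 0.000275), Elk1 fell (-1.10, adjusted p = 0.0401) and Elk4 was not called. Elk1 was at 3.63 and 3.64 FPKM in CSA01 and CSA02 and 1.04 in CSA03, and without CSA03 its value was -0.53 (adjusted p = 0.0237). Mrtfa, Mrtfb and the 3 Elk genes were chosen after their values were seen.

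Immediate early genes, a further class of SRF targets, were mixed. Of 8, 2 fell (Fosb, -2.27, and Egr1, -0.94), 1 rose (Egr2, 1.68) and 5 were not called, among them Nr4a1 at -1.35 (adjusted p = 0.106). Their median was -0.52, and -0.13 without CSA03. In the fit without CSA03 Egr1 was not called (-0.68, adjusted p = 0.136), 1 fell and 2 rose. Junb, not called with all mice, was then higher (1.89, adjusted p = 0.000213). Of 12 partners and repressors of MEF2, 11 were tested, 3 rose and 3 fell, and the median was -0.03, while without CSA03 5 rose and 4 fell. Beside both lists, 21.2% of all tested genes fell and 19.5% rose, and without CSA03 3620 of 14066 fell and 2997 rose. The repressors Hdac9 (-1.51, adjusted p = 7.88e-05) and Hdac5 (-0.98, adjusted p = 0.0193) were among those that fell, and Nfatc2, a calcineurin-dependent factor also abundant in lymphocytes, rose (1.46, adjusted p = 0.00418). Hdac5 was at 11.5 and 12.1 FPKM in CSA01 and CSA02 and 4.97 in CSA03, and its value was -0.57 without CSA03 (adjusted p = 0.0101).

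Relatives of the other factors were read in the same way, beside the 21.2% of all tested genes that fell and the 19.5% that rose. Without CSA03 these were 3620 and 2997 of 14066 genes. Of 7 GATA and FOG genes 4 were tested, and Gata3 (-1.06) and Zfpm2, the cofactor FOG2 (-0.44), fell, while Gata2 was at 6.68 ± 1.81 FPKM in CFA and 2.35 ± 1.02 in CSA without passing the test (adjusted p = 0.0764). Of 9 T-box genes 2 were tested, and Tbx2 fell (-1.03, adjusted p = 0.00086) while Tbx1 did not pass (-0.56, adjusted p = 0.439). Of 15 bHLH relatives and partners 12 were tested, 5 fell and 1 rose, with the largest falls for Tcf23 (-1.58), Tcf15 (-1.49) and Id4 (-1.30). Without CSA03, 5 of the 12 fell and 3 rose, and Tcf15 was not called (-1.01, adjusted p = 0.0617). Among 24 tested of 26 other mural and mesenchymal factors, 11 fell and 3 rose, with a median of -0.68. Without CSA03 14 of 23 fell and 1 rose, with Runx2 no longer tested. Heyl, a Notch target of mural cells, went from 53.3 ± 23.4 FPKM in CFA to 4.52 ± 1.93 in CSA (-3.51, adjusted p = 5.87e-05). Nkx2-3 fell (-2.50, adjusted p = 0.00458), and Runx2, an osteogenic factor, rose from 0.353 ± 0.0778 to 2.53 ± 0.499 FPKM (2.53, adjusted p = 9.39e-05), though without CSA03 it missed the filter. Runx2 reached 1 FPKM only in the CSA libraries, where it was high, so its call carries that selection and is a description.

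Among the genes whose levels most resembled that of Myocd over the 12 libraries were Hipk3 (Pearson's r = 0.995), Npy1r (0.989), Rgs17 (0.983) and Zhx3 (0.981), by correlation of log2(FPKM + 0.1). Spearman's rho for the same genes was 0.972, 0.902, 0.860 and 0.881. Hipk3 is a kinase gene, Npy1r a neuropeptide Y receptor gene and Rgs17 a regulator of G protein signalling. Npy1r was at 49.0 ± 7.57 FPKM in CFS, 37.5 ± 8.85 in CSS, 26.1 ± 12 in CFA and 3.77 ± 0.950 in CSA. These correlations describe 12 libraries that share the low CSA group. Among the other 8 factors the closest to Myocd by Pearson's r was Tbx18 (0.924, rank 610 of the tested genes), and by Spearman's rho it was Mef2c (0.811, rank 428), followed by Srf (0.790) and Tbx18 (0.734).

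**Figure D4:**
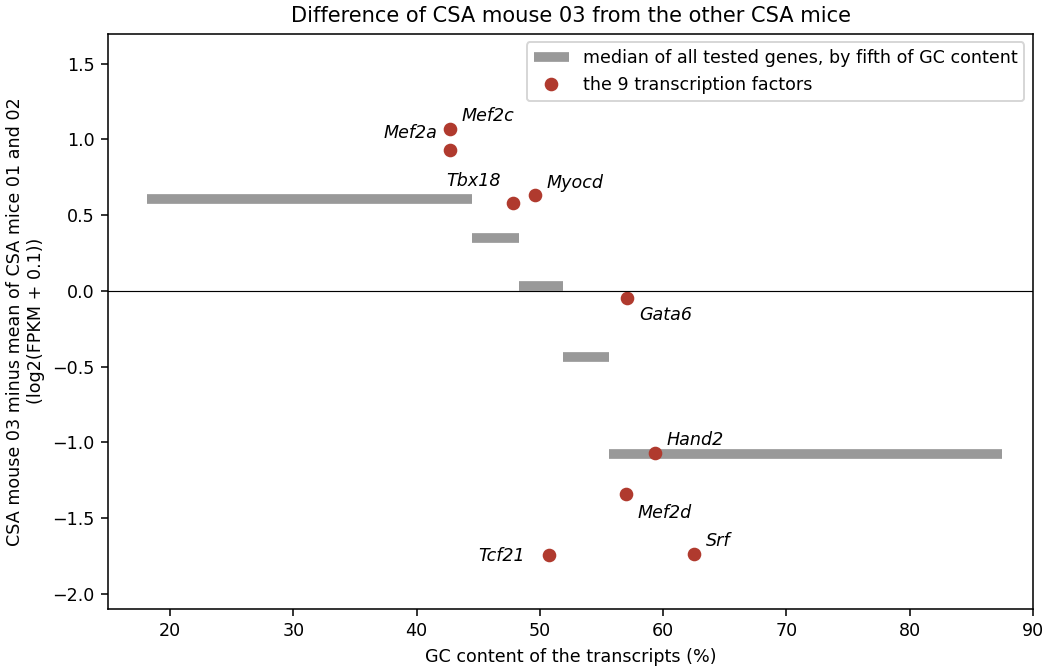
Difference in log2(FPKM + 0.1) of CSA03 from the mean of CSA01 and CSA02 (y axis) against the GC content of the transcript (x axis, percent) for the 9 factors (points) and the median of all tested genes in 5 equal groups by GC content (bars). The medians go from 0.61 in the lowest group to -1.08 in the highest, with Mef2a and Mef2c at the upper left, Srf, Mef2d and Hand2 at the lower right, Tcf21 far below the bar at its GC content, and Myocd and Gata6 above theirs.

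The values of CSA03 for some of the factors lay along the trend over GC content seen for all genes. Mef2a and Mef2c were 0.90 to 1.13 higher on the log2 scale than in CSA01 and CSA02, and Srf, Mef2d and Hand2 were 1.01 to 1.81 lower. Tcf21, with a GC content of 50.7%, was 1.54 and 1.95 lower, where the median gene of its GC group differed by 0.03. Its exons, at 2349 bases, are the shortest of the 9. Myocd, of the same GC group, was 0.81 and 0.45 higher. Gata6 differed by -0.25 and 0.15, where its group was at -1.08. Correction for GC content and length was added after the data were seen, and gave log2 fold changes in CSA against CFA of -1.0 for Srf, -0.26 for Mef2a, -0.50 for Mef2c, -0.62 for Mef2d, -1.16 for Tbx18, 0.65 for Hand2 and -2.04 for Tcf21. With it 6 factors were called lower, where 48.6% of all genes were called in either direction. The cause of the trend in CSA03 was not tested.

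**Figure D5:**
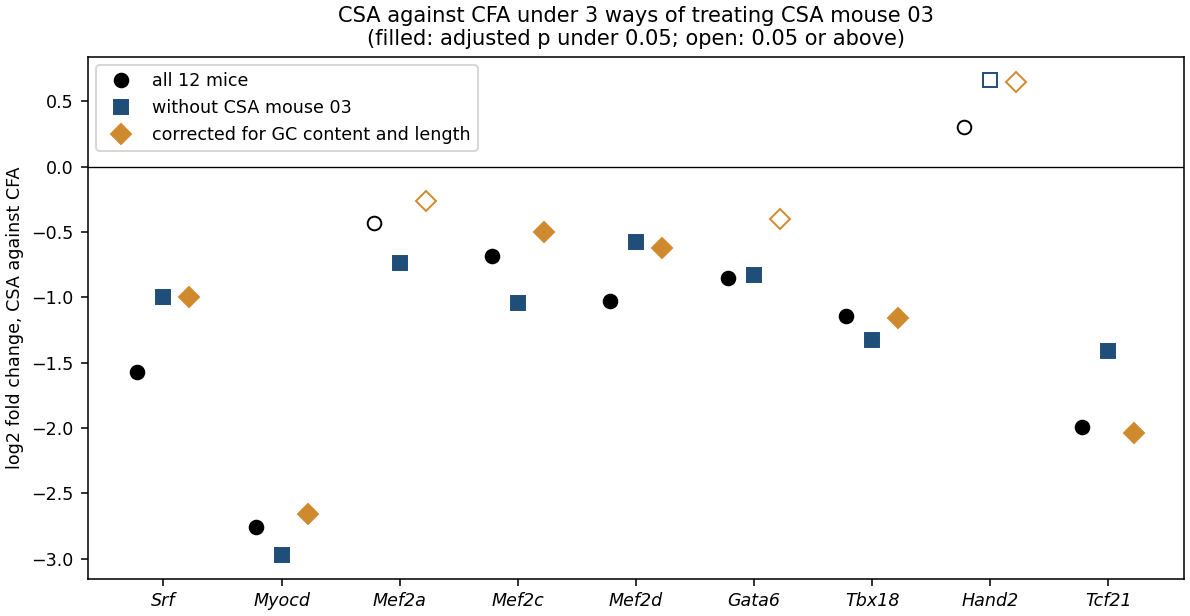
Log2 fold change of each factor in CSA against CFA (y axis) with all 12 mice, without CSA03, and with all mice after correction for GC content and length, filled where the adjusted p is under 0.05. Myocd stays between -2.97 and -2.66, Srf is at -1.57 with all mice and at -1.0 in both others, and Mef2a and Gata6 change their call.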

How the data were processed

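RNA-Seq of abdominal aortas from 12 male mice, 4 groups of 3, was analysed, with groups and mouse numbers taken from the sample labels. The authors deposited FPKM, 1 value per gene and mouse. The submitters' processing notes name HISAT2 2.0.5, StringTie 1.3.3b, featureCounts 1.5.0-p3 and mm10. The annotation release is not given in the sources used here. The GENCODE M21 annotation of GRCm38 gave symbols for 54409 and exon lengths for 54495 of 55092 features (54532 with Ensembl identifiers, 560 without). With these lengths 98.05% to 98.53% of values under 100 fragments were whole within 0.05 fragments, which gave depths of 14558580 to 23107807 fragments. Median log ratios were equal (0.0134) in all libraries, so the deposited FPKM carry a scaling between libraries. Up to 3 fragments are possible behind a 0, for counting error only.

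Log2(FPKM + 0.1) was fitted in R 4.3.3 with limma 3.58.1 (eBayes with trend and robust settings), 1 coefficient per group over all 12 libraries, for 14676 genes with at least 1 FPKM in at least 3 libraries. Benjamini-Hochberg adjustment was made within each of 5 comparisons, and rose and fell mean an adjusted p under 0.05. The study used DEG-Seq, which needs counts, with an absolute log2 fold change over 1.5, kept here as a stricter call. Each mouse gave 1 library. Fold changes understate those of low genes because of the added 0.1. On data simulated for CSA against CFA, with 13597 genes tested, 99 of 100 genes changed 8-fold and 36 of 100 changed 2-fold were called, and so were 9 of 13397 unchanged genes. Far fewer genes were changed in the simulation than the 40.7% called in the data. A single spread setting served all its genes, and no simulated library had a GC trend like that of CSA03. The simulated rates therefore do not carry over to the real comparison. Single values were compared by two-sided exact permutation tests.

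The 9 factors and all lists were chosen with earlier results of these data known. Genes named are the 9 factors, Ccn2, Acta2, Tagln, Cnn1, Myh11, the 3 tested genes with the largest change in each pathway list and the 5 most like Myocd, of which 1 is not reported here. Others were chosen after their values were seen, among them Egr1, Junb and the single cell-type markers named, such as Dbh, Npy and Stmn2. Myl9 and Vcl are named for the CArG box in their windows. As alternatives, 1 was added in place of 0.1, the filter was dropped or set to a mean of 5 FPKM, libraries were scaled by median ratios or to equal totals, eBayes was run plain, array weights were used, the compared groups were fitted alone, each mouse was left out, and, added after the data were seen, a loess correction (span 0.5) for GC content and exon length was made. Promoter sequences are RefSeq's on GRCm38.p6. Tables used Python 3.11.15, pandas 2.3.3 and numpy 2.4.6, and figures matplotlib 3.10.9.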

Additional observations from a re-analysis of the deposited data

Results flagged for a closer look

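The genotype difference under Ang II departed from that under saline for 5 of the 9 factors, by a test of the interaction itself with limma. All 5 were negative, and over all tested genes 13.7% were called negative and 26.4% in either direction. The log2 values were -2.63 for Myocd, -2.02 for Tcf21, -1.58 for Srf, -1.0 for Gata6 and -0.99 for Tbx18, negative where CSA is lower against CFA than CSS is against CFS. For Myocd the genotype difference was -2.76 under Ang II and -0.14 under saline, and for Tcf21 it was -1.99 and 0.03. For Gata6 the values were -0.85 and 0.15, and for Tbx18 they were -1.14 and -0.14. The difference of Srf rested on an adjusted p of 0.0496, with a range of 0.00065 to 0.101 over its alternatives. Without CSA03 the interaction was -2.83 for Myocd, -1.44 for Tcf21, -1.0 for Srf, -0.98 for Gata6 and -1.18 for Tbx18. After GC and length correction the interaction of Gata6 was -0.46 (adjusted p = 0.323). Of 20 alternatives, the call was lost in 11 for Srf, in 5 for Tbx18 and in 1 for Gata6, and of 19 for Tcf21 it was lost in 7.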

How the results depend on the processing

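No paired analysis was possible because the mouse numbers of the labels differ between the groups. The count of 7 factors called between CSA and CFA was 5 to 8 in the alternatives, where 20.2% (no filter) to 57.4% (array weights) of all tested genes were called in either direction against 40.7%, and that past the fold limit went from 3 to 1 with array weights and to 1 to 3 when a mouse was left out, being 1 without CSA03 only. Of all genes 17.6% were past that limit with array weights and 13.8% (without CSA03) to 17.9% when a mouse was left out. Between CSA and CSS the 8 calls became 5 in a fit of the compared groups alone, where 39.2% of all genes were called. The 5 interaction calls were 3 without a filter, 8 with array weights and 2 to 8 when a mouse was left out (2 without CFA71, CFA74 or CSS56, 3 without CFA72, CFS70 or CSS55, 8 without CSA03). The share of all tested genes called moved with them, from 26.4% to 11.8% without a filter, 43.2% with array weights, 34.3% without CSA03 and 21% to 26% without a mouse of another group. Past the fold limit the interaction count of 3 was 1 without a filter and with array weights, and 1 to 4 when a mouse was left out, beside 7.92%, 17% and 12.9% to 15.9% of all genes. No factor was called between CSS and CFS or between CFA and CFS in any alternative.

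Of 130 alternative values in CSA against CFA, 117 kept their direction and call, 11 lost the call (9 of them Mef2c, 1 Mef2d, 1 Gata6), 2 gained it (Mef2a) and 0 changed sign. The fold changes that turned sign were not called in any fit. Without CSA03 the differences of the MEF2 shares also turned, from 7.35 to -1.05 percentage points for Mef2a, from 0.748 to -3.22 for Mef2c and from -8.1 to 4.27 for Mef2d. In CSS against CFS, Srf was -0.15 after GC and length correction and -0.05 to 0.08 when a mouse was left out. Ranges in the same comparison were -0.35 to 0.11 for Myocd, -0.17 to 0.01 for Mef2c, -0.82 to 0.52 for Hand2 and -0.20 to 0.19 for Tcf21. The Hand2 interaction ranged from -0.22 to 1.12. The single values of these changes of sign were -0.03, -0.05, -0.03 and -0.01 (Srf), 0.11 (Myocd), 0.01 (Mef2c), 0.18, 0.52 and 0.03 (Hand2), -0.20 and -0.13 (Tcf21) and -0.22 (Hand2 interaction). By rank the likeness of Npy1r to Myocd was 0.902 in place of 0.989. The causes were not tested, except that leaving out a mouse leaves fewer samples. Hand2 rests on 0 to 22 fragments per library in saline.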
